A study of Mus musculus with 8 samples.

Results

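The small leucine-rich proteoglycans (SLRPs) are secreted matrix proteins, and 8 of their genes, *Lum*, *Dcn*, *Fmod*, *Ogn*, *Bgn*, *Aspn*, *Omd* and *Prelp*, were examined in DTC tumors and mammary tumors. Each gene was read from 1 probe set, chosen by its mean log2 value over all 8 tumors, the highest among the probe sets annotated with that gene alone. All 8 genes had such a probe set, out of 22180 genes measured in this way, and 11 probe sets belonged to them in all. This mean was the measured value that chose the probe sets, and the lower values of *Lum* and *Dcn* in DTC tumors were known when the family was chosen, so the results of these 2 genes are given as a description.

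The arrays compared 4 DTC tumors with 4 mammary tumors of the BALB-neuT model, in which the mouse mammary tumor virus promoter drives an activated rat *Her2/neu* oncogene. DTC tumors grew after marrow of BALB-neuT mice, a source of disseminated tumor cells (DTC), was injected under the skin of NSG mice, hosts without mature T, B and NK cells that keep their own fibroblasts and vessels. Mammary tumors are described in the labels as grown from 100000 TUBO cells, a line from a BALB-neuT mammary tumor, and in the methods as primary BALB-neuT mammary tumors. The study's results describe the mammary tumors on the arrays, like the DTC tumors, as grown under the skin of NSG mice. The labels give 3000000 to 5000000 bone marrow cells per injection, and both kinds of injected cells were mixed with Matrigel, a basement membrane extract, and with 1 µg of murine bFGF, a fibroblast growth factor. The labels call the disseminated cells early, whereas the study obtained DTC tumors from the marrow of older donors. If the labels hold for the mammary tumors, all 4 came from 1 cell line, and a trait of that line and a difference between tumor types cannot be told apart. Whether each tumor came from its own mouse is not given in the sources used here, and the p-values reflect only how much these 8 tumors vary. Values are log2 expression as deposited, and a log2 fold change is DTC minus mammary tumors.

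SLRPs share a core of leucine-rich repeats that binds fibrillar collagen, and several carry chains of chondroitin, dermatan or keratan sulfate. They set the diameter and spacing of collagen fibrils and hold growth factors such as TGF-β in the matrix. In connective tissue and in tumor stroma they are made chiefly by fibroblasts and related mesenchymal cells. The class I members here are *Dcn*, *Bgn* and *Aspn*, the class II members are *Lum*, *Fmod*, *Prelp* and *Omd*, and *Ogn* belongs to class III.

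The arrays were alike across the series, with a correlation over probe sets, for any pair, of 0.977 to 0.985 within the DTC group, 0.979 to 0.988 within the mammary group and 0.975 to 0.984 across groups. Epithelial markers were present, with a list mean over 8 genes of 9.27 to 9.41 in DTC tumors and 9.22 to 9.33 in mammary tumors. *Epcam*, an epithelial adhesion molecule, lay at 11.22 to 11.33 in DTC tumors and at 11.49 to 11.72 in mammary tumors, and *Krt8*, a keratin of luminal cells, at 10.39 to 10.81 in DTC tumors and at 10.12 to 10.50 in mammary tumors. *Epcam* was lower in DTC tumors without overlap (log2 fold change -0.38, adjusted p = 0.288 by limma), *Elf3*, an epithelial transcription factor, differed by 0.42 (adjusted p = 0.380 by limma), and *Krt19*, another keratin, was dim, at 4.63 to 4.95 over all tumors. The whole tumor was measured, so fewer cells of a type and less RNA per cell cannot be told apart.

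In the probe sets used, most genes of the family were lower by mean in DTC tumors, *Lum* and *Dcn* by the most. By group mean, 7 of the 8 genes were lower in DTC tumors and 1, *Aspn*, was higher, and the median log2 fold change was -0.36, against 0.0076 over all genes. By the same measure, 48.3% of all genes were lower. Of the genes lower by mean, *Fmod*, *Bgn* and *Prelp* have a second probe set. Its log2 fold change was 0.04 for *Fmod*, 0.11 for *Bgn* and -0.03 for *Prelp*. No gene of the family passed the adjusted p: 7 of the 8 were tested, since *Prelp* varied too little for the filter on interquartile range, and 0 were called by limma, for which both an adjusted p no higher than 0.05 and a log2 fold change of 1 or more in either direction were required, against 0.132% of all probe sets tested. By limma's p before adjustment, with 0.05 as the limit, 2 of 7 were lower, against 8.28% of all probe sets. By the same p, 0 were higher, against 6.47%. These 2, *Lum* and *Dcn*, were known to be lower when the family was chosen, so their count tests nothing about the family. Among the other genes tested, *Fmod* had the lowest such p, 0.115 by limma. The 4 DTC tumors lay entirely below the 4 mammary tumors for 2 of 8 genes, *Lum* and *Prelp*, against 5.76% of all genes, and entirely above them for 0, against 3.89%. This count includes *Lum*, and the median and the counts by mean include *Lum* and *Dcn*, so they describe the family only. An exact permutation test of 4 against 4 tumors, two-sided, cannot give a p below 0.0286.

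**Figure D1:**
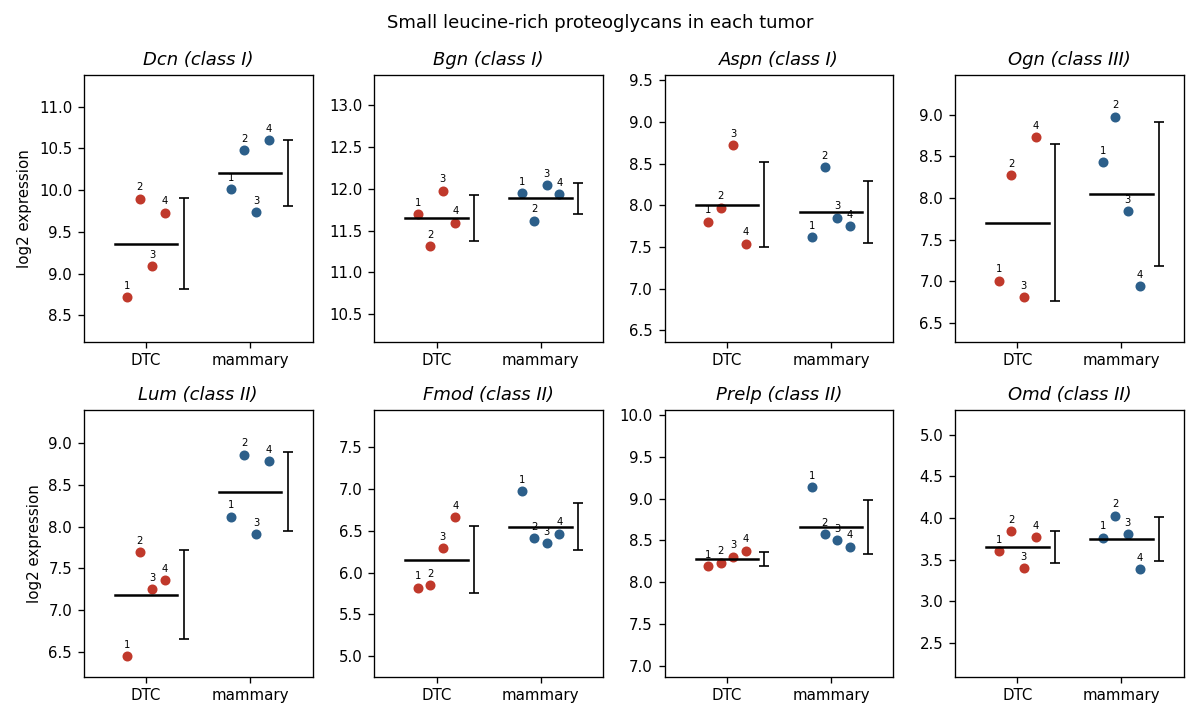
Log2 expression of the 8 genes in each tumor, with DTC tumors (red) left of mammary tumors (blue) and every panel spanning the same number of log2 units. Numbers beside points are replicate numbers, horizontal lines are means and the bars beside them are SD (n = 4 each). DTC tumors sit wholly below mammary tumors for *Lum* and *Prelp* only.

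Lumican, encoded by *Lum*, is a class II protein that governs the spacing of collagen fibrils. Its log2 values were 6.45, 7.69, 7.25 and 7.36 in DTC tumors 1 to 4, against 8.12, 8.86, 7.91 and 8.79 in mammary tumors 1 to 4. Every DTC tumor lay below every mammary tumor, DTC tumor 1 was the lowest by the widest gap in its group, and mammary tumors 2 and 4 were the highest. *Lum* averaged 7.19 ± 0.53 in DTC tumors and 8.42 ± 0.48 in mammary tumors (SD, n = 4 each). The log2 fold change was -1.23 (SE 0.30, 95% interval -1.89 to -0.57), or 2.35-fold lower in DTC tumors, with an adjusted p of 0.128 and an unadjusted p of 0.00177 by limma. The exact permutation p was 0.0286, the smallest the design allows. Without DTC tumor 1 the log2 fold change was -0.99. In the order of all genes by log2 fold change, *Lum* was number 36 from the lowest. With 1 probe set per gene in the fit, which leaves 8282 genes, *Lum* was called (adjusted p = 0.0424 by limma), where 1.04% of the genes tested were called.

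Decorin, encoded by *Dcn*, is a class I protein with a chondroitin or dermatan sulfate chain that binds collagen and TGF-β and can dampen EGFR signaling. It read, on the log2 scale, 8.72, 9.90, 9.09 and 9.73 in DTC tumors 1 to 4, against 10.01, 10.48, 9.74 and 10.60 in mammary tumors 1 to 4. The groups met at a single pair of tumors, with DTC tumor 2 above mammary tumor 3. *Dcn* averaged 9.36 ± 0.55 in DTC tumors and 10.21 ± 0.40 in mammary tumors (SD, n = 4 each). The log2 fold change was -0.85 (SE 0.29, 95% interval -1.48 to -0.21), or 1.80-fold lower in DTC tumors, with an adjusted p of 0.245 and an unadjusted p of 0.0140 by limma. The exact permutation p was 0.0571, and *Dcn* was number 121 of the genes ordered from the lowest log2 fold change.

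The profile of *Lum* over the tumors was closest to that of *Dcn*. With each gene centred on its own mean over the 8 tumors, the root-mean-square difference between both profiles was 0.25 on the log2 scale, and none of the other 22179 genes was nearer to *Lum*. In both genes DTC tumor 1 was the lowest and DTC tumor 2 the highest DTC tumor, and mammary tumor 3 was the lowest mammary tumor. With each gene set instead to its own mean in mammary tumors, *Lum* minus *Dcn* was -0.49, -0.42, -0.06 and -0.59 in DTC tumors 1 to 4, against -0.10, 0.17, -0.05 and -0.02 in mammary tumors 1 to 4. This difference was lowest in DTC tumors 1, 2 and 4 and overlapped between the groups through DTC tumor 3. Outside the family, the genes nearest to *Lum* were *Gm12474* (0.30), *Hid1* (0.37), *Rasef* (0.37), *4930480K23Rik* (0.37) and *Scn7a* (0.38). Those nearest to *Dcn* were *Gm12474* (0.22), *Rasef* (0.25), *Fmo1* (0.27), *Wdfy2* (0.27) and *Hsd17b2* (0.28). Of these genes *Hid1* was called lower in DTC tumors (log2 fold change -1.06, adjusted p = 0.0260 by limma). Any gene lower in DTC tumors by a like amount comes near to *Lum* by this measure, which describes these 8 tumors and no more.

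The remaining class I genes differed less. Biglycan, encoded by *Bgn*, is the nearest relative of decorin and carries chains of the same kind. Its log2 values were 11.70, 11.32, 11.98 and 11.60 in DTC tumors 1 to 4, against 11.95, 11.62, 12.04 and 11.93 in mammary tumors 1 to 4. The groups overlapped, and within each group tumor 2 was the lowest and tumor 3 the highest. *Bgn* averaged 11.65 ± 0.27 in DTC tumors and 11.89 ± 0.18 in mammary tumors (SD, n = 4 each), a log2 fold change of -0.24 (95% interval -0.65 to 0.17, adjusted p = 0.622 by limma). A second probe set of *Bgn* gave 0.11 (adjusted p = 0.869 by limma), so the sign of this small difference turned on the probe set.

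Asporin, encoded by *Aspn*, is a class I protein that binds collagen and TGF-β but lacks the sulfated chain. Log2 values of *Aspn* were 7.80, 7.97, 8.72 and 7.54 in DTC tumors 1 to 4, against 7.62, 8.46, 7.85 and 7.75 in mammary tumors 1 to 4. Each group had 1 tumor well above its others, DTC tumor 3 and mammary tumor 2, and the groups overlapped. *Aspn* averaged 8.01 ± 0.51 in DTC tumors and 7.92 ± 0.37 in mammary tumors (SD, n = 4 each), a log2 fold change of 0.09 (95% interval -0.51 to 0.69, adjusted p = 0.927 by limma). Without DTC tumor 3 the log2 fold change was -0.15.

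In class II, fibromodulin, encoded by *Fmod*, binds collagen and guides its crosslinking by lysyl oxidase. *Fmod* read 5.82, 5.85, 6.30 and 6.67 in DTC tumors 1 to 4, against 6.97, 6.41, 6.36 and 6.47 in mammary tumors 1 to 4. DTC tumors 1 to 3 lay below every mammary tumor, and DTC tumor 4 lay above all but mammary tumor 1. *Fmod* averaged 6.16 ± 0.40 in DTC tumors and 6.55 ± 0.29 in mammary tumors (SD, n = 4 each), a log2 fold change of -0.39 (95% interval -0.90 to 0.11, adjusted p = 0.472 by limma). A second probe set gave 0.04 (adjusted p = 0.941 by limma).

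PRELP, encoded by *Prelp*, binds heparan sulfate and collagen and ties basement membranes to the connective tissue around them. *Prelp* read 8.19, 8.23, 8.31 and 8.38 in DTC tumors 1 to 4, against 9.14, 8.58, 8.50 and 8.42 in mammary tumors 1 to 4. The DTC tumors were tightly grouped below all mammary tumors, mammary tumor 1 stood highest, and mammary tumor 4 lay only just above DTC tumor 4. *Prelp* averaged 8.28 ± 0.083 in DTC tumors and 8.66 ± 0.33 in mammary tumors (SD, n = 4 each). In the fit without the interquartile filter the log2 fold change was -0.38 (SE 0.16, 95% interval -0.74 to -0.03, adjusted p = 0.388 by limma), and the exact permutation p was 0.0286. A second probe set gave -0.03 (adjusted p = 0.967 by limma).

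Osteomodulin, encoded by *Omd*, is a class II protein known mainly from bone, and its probe set was dim, above only 20.9% of all probe sets by mean. Values ran from 3.40 to 3.84 in DTC tumors and from 3.39 to 4.03 in mammary tumors, with the lowest and the highest value of all in the mammary group. *Omd* averaged 3.65 ± 0.20 in DTC tumors and 3.75 ± 0.27 in mammary tumors (SD, n = 4 each), a log2 fold change of -0.09 (95% interval -0.50 to 0.32, adjusted p = 0.881 by limma).

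Osteoglycin, encoded by *Ogn* and also called mimecan, is a class III protein that regulates collagen fibril diameter. *Ogn* read 7.01, 8.28, 6.82 and 8.73 in DTC tumors 1 to 4, against 8.43, 8.97, 7.84 and 6.95 in mammary tumors 1 to 4. It varied most within the groups, over 1.91 log2 units in DTC tumors and 2.03 in mammary tumors, and tumors of both groups were found at either end. *Ogn* averaged 7.71 ± 0.94 in DTC tumors and 8.05 ± 0.87 in mammary tumors (SD, n = 4 each), a log2 fold change of -0.34 (95% interval -1.44 to 0.75, adjusted p = 0.828 by limma). The interval is wide enough to hold the log2 fold changes of both *Lum* and *Dcn*. *Dpt*, encoding the decorin-binding matrix protein dermatopontin and chosen here after its values were seen, was the second nearest of the genes outside the family to *Ogn* (root-mean-square difference 0.31), behind *Vegfd* (0.30). *Dpt* read 7.69, 9.15, 7.01 and 8.74 in DTC tumors 1 to 4, against 8.41, 9.17, 8.46 and 7.16 in mammary tumors 1 to 4. As for *Ogn*, DTC tumors 2 and 4 were high, DTC tumor 3 was the lowest DTC tumor and mammary tumor 4 the lowest mammary tumor.

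**Figure D2:**
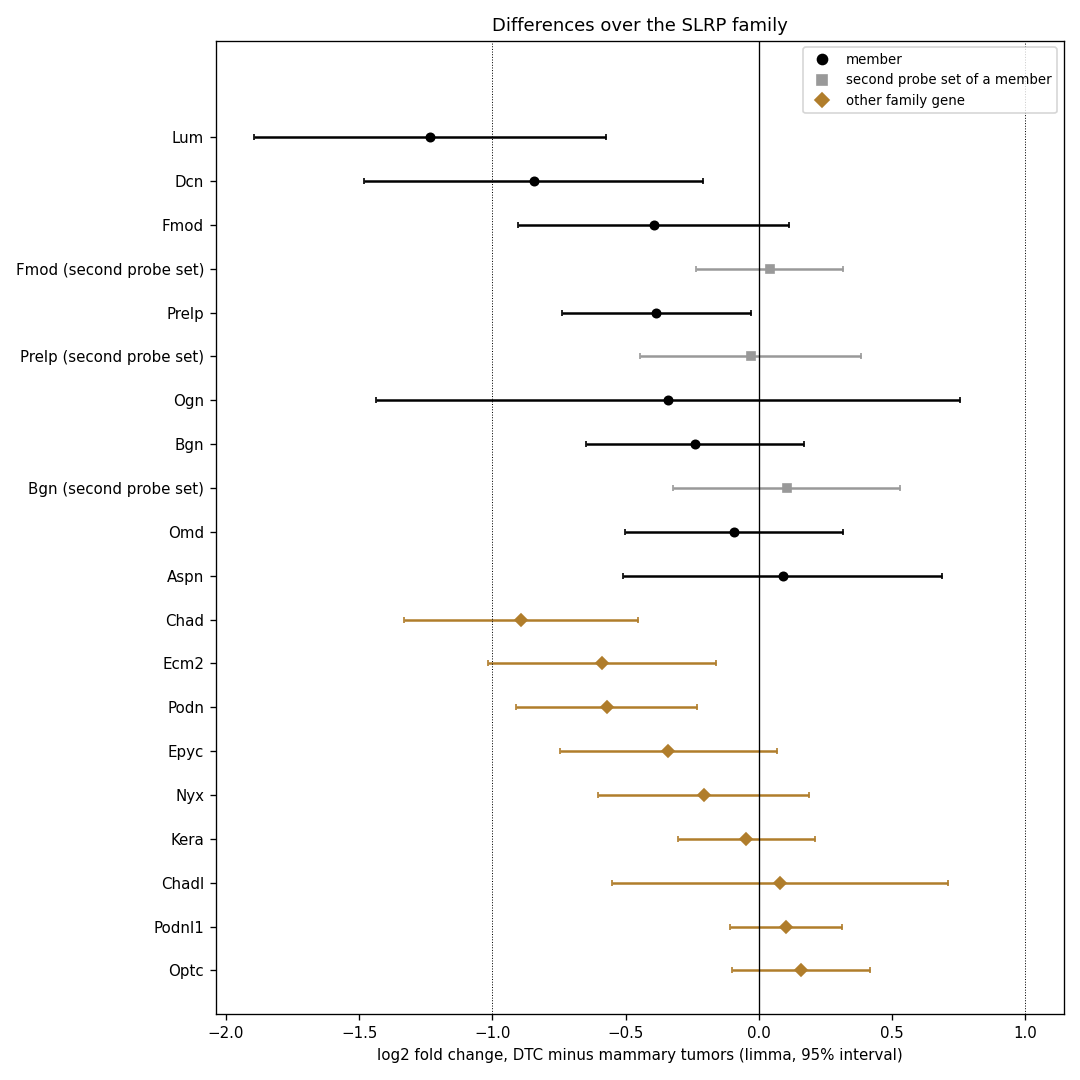
Log2 fold changes (DTC minus mammary tumors) with 95% intervals from limma for the 8 genes (black circles), the second probe sets of 3 of them (grey squares) and 9 further SLRP genes (brown diamonds). Solid and dotted vertical lines mark 0 and an absolute log2 fold change of 1. *Lum* at -1.23 is the only gene beyond -1, and the second probe sets of *Fmod*, *Prelp* and *Bgn* lie near 0.

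Further genes of the family were measured as well, 9 of the 10 listed. By group mean, 6 of them were lower in DTC tumors and 3 higher, and the median log2 fold change was -0.21. Among the 6 tested none passed the adjusted p, and 3 were lower by limma's p before adjustment, with 0.05 as the limit, against 8.28% of all probe sets, and the same 3 of 9 had groups that did not overlap, against 5.76% of all genes. *Chad*, encoding chondroadherin, a cartilage protein that binds collagen and integrins, ran from 6.80 to 7.03 in DTC tumors and from 7.41 to 8.28 in mammary tumors. All DTC tumors lay close together below the mammary tumors, and the log2 fold change was -0.89 (95% interval -1.33 to -0.45, adjusted p = 0.106 by limma). *Ecm2*, a matrix gene related to decorin, differed by a log2 fold change of -0.59 (adjusted p = 0.235 by limma). *Podn*, encoding podocan, ranged from 6.61 to 6.97 in DTC tumors and from 7.29 to 7.50 in mammary tumors, and its log2 fold change was -0.57 (adjusted p = 0.156 by limma). *Podn* completes the 3 and was named after its values were seen. *Kera*, encoding keratocan of the cornea, and *Epyc*, encoding epiphycan of cartilage, had log2 fold changes of -0.05 and -0.34, and *Optc*, encoding opticin of the eye, 0.16. Over the 17 family genes measured, 13 were lower by mean in DTC tumors. Of the 17, 5 lay wholly below the mammary tumors, against 5.76% of all genes, and 0 wholly above them, against 3.89%. *Lum*, whose lower values were known beforehand, is among the 5, so this count is a description.

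Many SLRP genes lie side by side in the mouse genome. In the RefSeq order of protein-coding genes (GRCm38.p6), *Dcn*, *Lum*, *Kera* and *Epyc* follow each other on chromosome 10, *Ecm2*, *Aspn*, *Omd* and *Ogn* on chromosome 13, and *Optc*, *Prelp* and *Fmod* on chromosome 1, with no other gene between them, and *Bgn* lies on chromosome X. On chromosome 10 the profiles of *Dcn* and *Lum* ran together. The probe sets of *Kera* and *Epyc* were dim, above only 26.2% and 22.7% of all probe sets by mean, so whether these neighbors followed could not be read. On chromosome 1, *Prelp* and *Fmod* had nearly equal log2 fold changes, -0.38 and -0.39, and mammary tumor 1 was the highest tumor for both, although their second probe sets gave -0.03 and 0.04. Without mammary tumor 1 the log2 fold changes were -0.22 for *Prelp* and -0.25 for *Fmod*. On chromosome 13 *Aspn* and *Ogn* ran apart: DTC tumor 3 was the highest of all tumors for *Aspn* and the lowest of all for *Ogn*. *Ogn* minus *Aspn*, each set to its mean in mammary tumors, spanned -2.03 to 1.06 in DTC tumors and -0.93 to 0.68 in mammary tumors. *Omd* was nearer to *Ogn*, number 132 of the 22179 other genes, and both had their lowest DTC value in DTC tumor 3, their lowest mammary value in mammary tumor 4 and their highest in mammary tumor 2. Its root-mean-square difference to *Ogn* was 0.62, against 0.30 for *Vegfd*, the nearest gene. The probe set of *Omd* was dimmer than those of *Kera* and *Epyc*, above only 20.9% of all probe sets, so whether it followed *Ogn* could not be read either. *Ecm2*, at the end of that row, was the only one of the 4 without overlap. Of the 22179 other genes ordered by nearness to *Lum*, *Fmod* was number 2163, *Prelp* 2260, *Omd* 6176, *Bgn* 9278, *Aspn* 15706 and *Ogn* 19158. The measure is not scaled to the spread of each gene. A gene that varies widely, such as *Ogn*, can therefore rank behind genes that hardly vary, and its rank does not show that they are more like *Lum*.

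**Figure D3:**
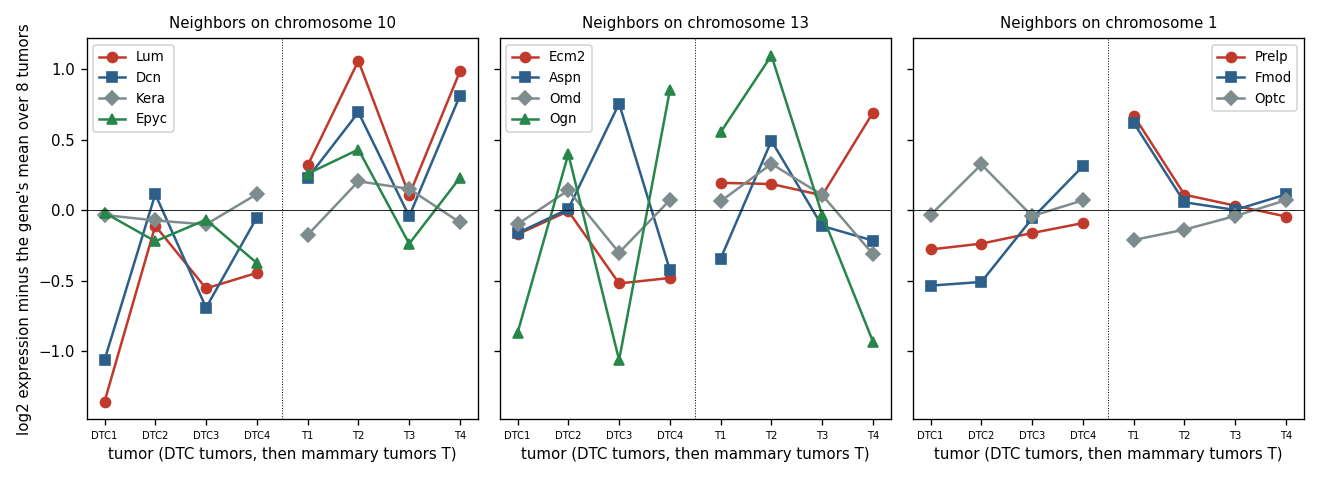
Log2 expression of neighboring SLRP genes in each tumor, minus the gene's mean over the 8 tumors, with DTC tumors 1 to 4 left of the dotted line and mammary tumors (T) 1 to 4 right of it. Lines join tumors of 1 group to aid the eye and mark no order. *Lum* and *Dcn* share their lowest tumor, DTC tumor 1, and their lowest mammary tumor, T3, whereas *Aspn* and *Ogn* part in DTC tumors 3 and 4.

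Promoter windows, from 250 bases before to 50 after the annotated start, were at hand in RefSeq (GRCm38.p6) for 6 of the 8 genes, *Prelp*, *Fmod*, *Aspn*, *Omd*, *Ogn* and *Bgn*, and not for *Lum* and *Dcn*. Shown are *Prelp* and *Fmod*, neighbors with a like difference between the groups in the probe sets used though not called, and *Aspn* and *Ogn*, neighbors whose profiles part. Each is written 5′ to 3′ on the strand of the gene, and capitals mark every match, on either strand, to the TATA box letters TATAAA, the CCAAT box, ACGTG (a core of hypoxia response elements), GCGTG (another form of that core), TGANTCA (AP-1 site) or GGAATG (TEAD site).
Prelp chr1:133921352-133921651 (- strand): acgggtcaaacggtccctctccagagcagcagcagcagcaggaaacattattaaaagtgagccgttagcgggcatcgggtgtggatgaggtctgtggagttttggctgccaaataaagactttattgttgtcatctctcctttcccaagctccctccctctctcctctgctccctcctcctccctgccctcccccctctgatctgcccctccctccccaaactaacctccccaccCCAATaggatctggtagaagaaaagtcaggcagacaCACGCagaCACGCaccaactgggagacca
Fmod chr1:134037004-134037303 (+ strand): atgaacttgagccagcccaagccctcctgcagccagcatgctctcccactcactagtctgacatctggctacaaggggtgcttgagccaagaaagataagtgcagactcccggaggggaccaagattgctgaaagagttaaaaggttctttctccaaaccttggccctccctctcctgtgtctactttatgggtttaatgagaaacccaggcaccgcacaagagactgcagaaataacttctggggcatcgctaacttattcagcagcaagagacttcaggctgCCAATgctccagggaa
Aspn chr13:49544193-49544492 (+ strand): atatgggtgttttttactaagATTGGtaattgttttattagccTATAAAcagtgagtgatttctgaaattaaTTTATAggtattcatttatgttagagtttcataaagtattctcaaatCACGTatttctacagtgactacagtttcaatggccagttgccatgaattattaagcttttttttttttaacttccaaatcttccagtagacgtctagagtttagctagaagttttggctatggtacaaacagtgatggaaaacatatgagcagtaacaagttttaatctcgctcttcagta
Ogn chr13:49607765-49608064 (+ strand): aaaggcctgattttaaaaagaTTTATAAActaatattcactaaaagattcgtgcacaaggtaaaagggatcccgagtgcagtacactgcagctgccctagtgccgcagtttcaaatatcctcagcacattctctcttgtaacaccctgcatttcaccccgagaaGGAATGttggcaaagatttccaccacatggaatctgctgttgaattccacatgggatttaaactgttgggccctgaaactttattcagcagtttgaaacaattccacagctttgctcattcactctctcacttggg
The CCAAT letters were found in *Prelp*, *Fmod* and *Aspn*, 3 of the 6 windows, and in 37.4% of all 32851 windows of this length. TATAAA was found in *Aspn* and in *Ogn*, where its 2 matches are on opposite strands and overlap, and in 13.6% of all windows. GCGTG was found in *Prelp* and *Bgn* (32.4% of all windows), ACGTG in *Aspn* (19.6%), GGAATG in *Ogn* (14.7%) and TGANTCA in none of the 6 (7.81%). The neighbors *Prelp* and *Fmod* shared only the CCAAT letters, at base 236 of the window in *Prelp* and, past the annotated start, at base 285 in *Fmod*. *Aspn* and *Ogn* shared only TATAAA, far before the start, at bases 44 and 73 in *Aspn* and 22 and 24 in *Ogn*. The windows differed in base composition, with 31.0% G and C in *Aspn*, 37.7% in *Omd*, 42.3% in *Ogn*, 51.0% in *Fmod*, 55.3% in *Prelp* and 63.7% in *Bgn*, against a median of 52.7% over all windows. A match describes the letters and not a bound site.

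SLRPs act on collagen, whose genes were followed as well. Of 15 fibrillar collagen and fibril-associated genes measured, 8 were lower and 7 higher by mean in DTC tumors, none passed the adjusted p, and the median log2 fold change was -0.07. *Col1a1*, the main chain of collagen I, averaged 10.19 ± 0.34 in DTC tumors and 10.16 ± 0.32 in mammary tumors (SD, n = 4 each), a log2 fold change of 0.02 (adjusted p = 0.980 by limma). The largest differences among those tested were those of *Fn1*, encoding fibronectin, at 0.58, and *Col11a1*, a minor fibril chain, at -0.53 (adjusted p = 0.261 for each by limma). *Lum* minus *Col1a1*, each set to its mean in mammary tumors, ran from -1.92 to -0.45 in DTC tumors and from -0.86 to 0.71 in mammary tumors, so this difference overlapped between the groups.

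Among 10 genes of collagen hydroxylation and crosslinking none passed the adjusted p, 6 were higher by mean in DTC tumors and the median log2 fold change was 0.18. *P4ha2*, a subunit of collagen prolyl hydroxylase, was higher without overlap, at 5.75 to 6.44 in DTC tumors and 5.03 to 5.51 in mammary tumors (log2 fold change 0.80, adjusted p = 0.127 by limma). *P4ha1*, another subunit of that enzyme, named after its values were seen, was also higher without overlap (log2 fold change 0.68, adjusted p = 0.158 by limma). *Loxl3*, a lysyl oxidase, lay the other way, at a log2 fold change of -0.72 (adjusted p = 0.197 by limma). The enzymes that build chondroitin and dermatan sulfate chains, 19 measured, had log2 fold changes from -0.24 (*Dsel*, an epimerase) to 0.22 (*Ust*, a sulfotransferase) and a median of -0.02. None of the 7 tested was below 0.05 by limma's p before adjustment, where 8.28% of all probe sets were lower and 6.47% higher. *Fam20b*, a kinase of the linkage region that the interquartile filter left out and that was named after its values were seen, was lower without overlap (log2 fold change -0.22). Of 3 keratan sulfate enzymes the 1 tested, *B4galt4*, a galactosyltransferase, had a log2 fold change of -0.27.

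Of 10 proteases that cut SLRPs, 6 were higher and 4 lower by mean in DTC tumors, and none passed the adjusted p. By limma's p before adjustment, with 0.05 as the limit, 1 of the 7 tested was higher, against 6.47% of all probe sets tested. By the same p, 2 were lower, against 8.28%. The groups did not overlap for 1 higher gene, against 3.89% of all genes, and for 1 lower gene, against 5.76%. *Adamts4*, an aggrecanase, was higher without overlap, at 5.76 to 6.26 in DTC tumors and 4.81 to 5.34 in mammary tumors (log2 fold change 0.81, adjusted p = 0.110 by limma). *Mmp13*, a collagenase, reached 7.60 in DTC tumor 3 and spanned 4.77 to 7.60 in DTC tumors and 4.56 to 5.63 in mammary tumors (log2 fold change 1.12, adjusted p = 0.364 by limma). *Mmp14*, a membrane-bound collagenase named after its values were seen, was lower without overlap (log2 fold change -0.56, adjusted p = 0.164 by limma). Of 13 growth factors and receptors that SLRPs bind, 7 were higher by mean in DTC tumors, none passed the adjusted p and the median was 0.05. *Egfr*, a receptor that decorin binds, ran from 6.73 to 8.20 in DTC tumors and from 8.25 to 8.43 in mammary tumors. DTC tumors 1 and 2 lay well below the rest, DTC tumor 3 came close to the mammary tumors without reaching them, and the log2 fold change was -0.87 (adjusted p = 0.261 by limma). *Tgfb3*, a TGF-β ligand, differed by -0.52 (adjusted p = 0.308 by limma).

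**Figure D4:**
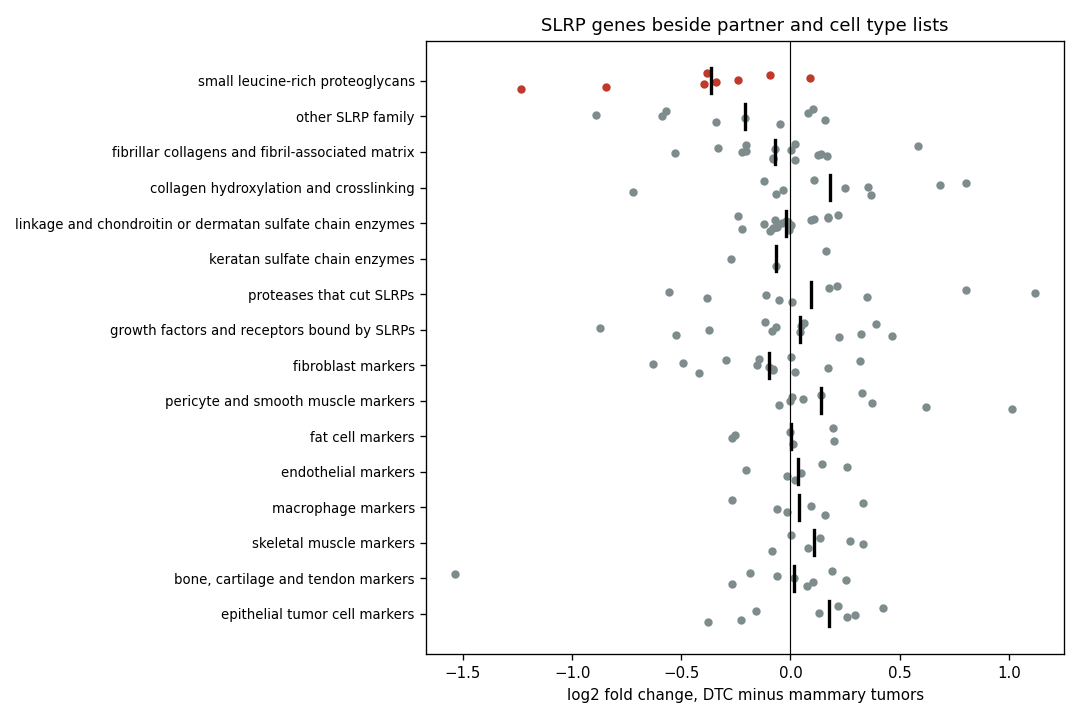
Log2 fold changes (DTC minus mammary tumors) of the 8 genes (red) and of the genes of 15 other lists (grey). These lists hold further SLRP genes, partners and cell type markers. Each point is a gene and each black bar the median of its list. The median of the 8 genes is -0.36, that of the fibrillar collagens -0.07 and that of the fibroblast markers -0.10. The collagen and fibroblast lists share *Col1a1*, *Col1a2* and *Col3a1*.

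Fibroblasts, the usual source of SLRPs, were followed with 13 markers, all measured, among them *Col1a1*, *Col1a2* and *Col3a1* of the collagen list. Of these, 9 were lower and 4 higher by mean in DTC tumors, none passed the adjusted p, and the median log2 fold change was -0.10. The mean over the list was 7.84 to 8.07 in DTC tumors and 8.01 to 8.30 in mammary tumors. DTC tumor 1 was the lowest tumor, as for *Lum* and *Dcn*, and mammary tumor 2 the highest, as for *Lum*. Other tumors were ordered differently. Among DTC tumors the list was highest in tumor 4, and *Lum* and *Dcn* in tumor 2. Mammary tumors 1 and 4 were lowest of their group for the list (8.01 each). *Lum* and *Dcn* were lowest there in mammary tumor 3, where the list mean was 8.21. *Mfap5*, a microfibril protein, was lower without overlap, at 8.62 to 9.35 in DTC tumors and 9.36 to 9.79 in mammary tumors (log2 fold change -0.63, adjusted p = 0.195 by limma), and *Pi16*, a marker of fibroblasts around vessels, differed by -0.49 (adjusted p = 0.321 by limma). *Pdgfra*, the receptor that defines most fibroblasts and chosen here after its values were seen, lay at 6.46 to 7.31 in DTC tumors and 7.14 to 7.47 in mammary tumors (log2 fold change -0.42, adjusted p = 0.400 by limma). *Lum* minus *Pdgfra*, each set to its mean in mammary tumors, was -1.09, -0.07, -1.08 and -1.02 in DTC tumors 1 to 4, against -0.37, 0.33, -0.54 and 0.58 in mammary tumors 1 to 4. DTC tumors 1, 3 and 4 lay below every mammary tumor in this difference, and DTC tumor 2 did not. *Dcn* minus *Pdgfra*, set likewise, was -0.60, 0.35, -1.02 and -0.43 in DTC tumors 1 to 4, against -0.50 to 0.60 in mammary tumors. Here only DTC tumors 1 and 3 lay below every mammary tumor. Among the 4 markers higher by mean were *Clec3b* (log2 fold change 0.32) and *Thy1* (0.17), named after their values were seen. The part of fibroblast content in the values of *Lum* and *Dcn* was not tested.

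For 2 of 9 markers of pericytes and smooth muscle, *Acta2* and *Tagln*, DTC tumors were higher without overlap, against 3.89% of all genes. The pericyte markers *Rgs5*, *Cspg4* and *Pdgfrb*, named after their values were seen, had log2 fold changes within 0.06 of 0. By mean 8 of 9 were higher, where 48.3% of all genes were lower, and none passed the adjusted p. The 1 lower gene was *Myh11*, a smooth muscle marker named after its values were seen, at -0.05. The list mean was 6.90 to 7.37 in DTC tumors and 6.67 to 7.01 in mammary tumors. *Acta2*, encoding smooth muscle actin, which myofibroblasts also express, read 9.76, 9.04, 9.43 and 9.13 in DTC tumors 1 to 4, against 8.73, 7.96, 8.81 and 7.81 in mammary tumors 1 to 4. The groups did not overlap, and DTC tumor 1, lowest for *Lum*, was highest for *Acta2* (log2 fold change 1.01, adjusted p = 0.148 by limma). *Tagln*, an actin-binding protein of the same cells, differed by 0.62 (adjusted p = 0.237 by limma).

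Fat cell markers, 6 of 6 measured, had a list mean of 5.52 to 6.75 in DTC tumors and 5.82 to 6.40 in mammary tumors. They were highest in DTC tumor 2 and mammary tumor 2, the tumors with the highest *Lum* of each group. The other tumors did not keep the order of *Lum*. Mammary tumor 4, close to mammary tumor 2 for *Lum* (8.79 against 8.86), had the lowest fat list mean of its group, 5.82. Among DTC tumors the fat list was lowest in tumor 3 and *Lum* in tumor 1. The largest differences among those tested were *Cidec*, a lipid droplet protein, at -0.27 and *Fabp4*, a fatty acid carrier, at -0.25. Of the markers of bone, cartilage and tendon, 9 of 9 measured, *Comp*, encoding cartilage oligomeric matrix protein, which binds collagen, read 9.13, 9.40, 8.64 and 10.32 in DTC tumors 1 to 4, against 11.20, 10.76, 10.88 and 10.79 in mammary tumors 1 to 4. All DTC tumors lay below all mammary tumors, and the log2 fold change was -1.53 (adjusted p = 0.0852 by limma), while the list mean was 5.30 to 5.44 in DTC tumors and 5.41 to 5.54 in mammary tumors. Next by size among those tested was *Dmp1*, a bone matrix protein, at 0.25. Endothelial markers (*Vwf* at 0.15 and *Kdr* at 0.05) had a list mean that reached 7.16 in DTC tumors and 7.14 in mammary tumors, with overlap. The macrophage list (*Itgam* at 0.33 and *Lyz2* at -0.27) lay at 8.28 to 8.82 in DTC tumors and 8.11 to 8.82 in mammary tumors, and skeletal muscle (*Myh4* at 0.33 and *Mylpf* at 0.27) at 5.07 to 5.27 in DTC tumors and 4.92 to 5.18 in mammary tumors. The parts of these cell types in the SLRP values were not tested.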

How the data were processed

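RNA of 4 DTC tumors and 4 mammary tumors was hybridized to Affymetrix MoGene 2.0 ST arrays. The authors normalized them in oneChannelGUI by its sketch-quantile method, and log2 values were deposited for 41345 probe sets, and the probe summary method is not given in the sources used here. Probe sets were named from the platform annotation: 23521 had 1 symbol, 1820 several and 16004 none, and only those with 1 were named. Following the study's methods, probe sets whose interquartile range exceeded 0.25, 18877 in all, were tested with limma 3.58.1 in R 4.3.3 with Benjamini-Hochberg adjustment. Genes below that range took their values from the same fit without the filter. Precision is limited by the number of arrays. The fit was tested on simulated data. Members, lists, tests and alternatives were chosen with earlier results of these data known. Named are all members, neighboring family genes and the 5 genes most like *Lum* and *Dcn*. Of each list, where none passed, the 2 largest differences among those tested are named. Given with values outside this rule were *Col1a1*, *Krt8*, *Krt19*, *Vegfd* and the genes marked as named or chosen after their values were seen. Listed genes without a probe set of their own were *Tsku*, *Fbn1*, *Loxl2*, *Plod3*, *Chpf2* and *Chst15*. For single genes an exact permutation test, two-sided, was added. Alternatives covered the filter, the probe sets, normalization, the variance model, array weights, a replicate block and the removal of each tumor in turn.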

Additional observations from a re-analysis of the deposited data

How the results depend on the processing

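Of 189 pairs of a result and an alternative, 182 were counted as unchanged. For a single gene this meant the same sign and the same call, and a gene that a filter left out counted as not called. For a second probe set it meant the same sign. Counts of genes were allowed a small shift, such as from 2 to 3. The median over the 8 genes was allowed to move by less than 0.174, the within-group SD of the per-tumor median. With 1 probe set per gene, 1 family gene was called, *Lum* (adjusted p = 0.0424 by limma), where over all alternatives its adjusted p ran from 0.0424 to 0.289. *Lum* and *Dcn* kept a p before adjustment within 0.05 by limma in 16 of 16 alternatives each. The groups stayed apart for *Lum* in 8 of 8 fits that left out a tumor, with log2 fold changes of -1.40 to -0.99. *Dcn* ran from -1.02 to -0.63, and its groups came apart without DTC tumor 2 or without mammary tumor 3. *Prelp* ran from -0.46 to -0.22 and *Ogn* from -0.71 to -0.03. The median over the 8 genes ran from -0.49 to -0.22. Signs turned for *Fmod* (0.041) and *Bgn* (0.11) with their second probe sets, and on leaving out a tumor for *Aspn* (-0.15 to 0.27) and *Omd* (-0.21 to 0.00037). The cause was not tested.

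Over all probe sets, 25 were called. The count was 19 without the filter, 15 with an interquartile range above 0.5, 46 with array weights, 57 with a trended and robust variance, 86 with 1 probe set per gene and 9 to 47 on leaving out a tumor. Tumors with the same number correlated at 0.0074 to 0.194 in their deviations, and those with different numbers at -0.182 to 0.047. The tumors numbered 3 (0.168) and 4 (0.194) lay above all pairs with different numbers. Nothing in the labels pairs the tumors. With the replicate block 7 probe sets were called, 0 of them in the family, the median over the family was -0.36, and *Lum* had an adjusted p of 0.119 by limma. The number of arrays, 4 a group, limits which differences can be called.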
